A study of Mus musculus with 15 samples.

Results

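Mki67, Top2a, Cdk1, Ccnb1, Ccnb2, Aurka, Aurkb, Bub1, Plk1 and Birc5 are genes of G2 and mitosis, and they were taken by name from the deposited table of filtered counts. All 10 were among the 16154 genes of that table. RNA sequencing was performed on HSC from 15 C57BL/6 mice that are female by the labels, with 5 libraries each from young mice (6 to 12 weeks), aged mice (20 to 24 months) and aged mice of the same age range that drank nicotinamide riboside (NR), a precursor of NAD, at 3 mg/ml for 2 months. The HSC gate was Lin-Sca-1+cKit+CD150+CD48-, and the young and aged groups received no NR. Libraries held 3′ ends, so levels are compared between samples and not between genes.

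Cells that leave quiescence copy their DNA in S phase and then make the mitotic machinery in G2. Cyclin B binds Cdk1 to drive entry into mitosis, and Aurora and Polo-like kinases build the spindle. Bub1 holds the cycle until chromosomes are attached, and cyclin B is degraded at mitotic exit. Transcripts of these genes are used as marks of dividing cells. Most HSC are quiescent, and in a sorted population the level of a mitosis gene reflects both how many cells divide and how much RNA each of them makes. In bulk samples fewer dividing cells and less RNA per cell cannot be told apart.

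Library totals ranged from 764119 (aged 2) to 13318989 counts (aged 3), and a mitosis gene had between 4 and 2461 counts in a library. HSC markers such as Kit were present in every library, with summed levels of 2132 ± 145 CPM (counts scaled by TMM library size, SD, n = 5) in young, 2348 ± 185 in aged and 2293 ± 220 in NR-treated aged HSC. Single markers differed more than the sums. In the same order, the medians were 132, 268 and 217 CPM for Ly6a, 82.0, 160 and 128 for Procr, and 452, 340 and 390 for Hlf. With age, 7 of the 11 markers had log2 fold changes above 0 and 4 below 0. Markers of mature blood cells (erythroid, granulocyte, B cell and macrophage) were at 523.2 to 8865 CPM in young, 5490 to 8973 in aged and 495.5 to 1202 in NR-treated aged HSC, and young 3 held 5744 CPM of granulocyte markers against 232.2 to 855.8 in the other young libraries. Y-linked transcripts summed to 99.7 CPM in young 1 and 105 CPM in young 5 and to at most 3.00 CPM in the other libraries, although all are labelled female. The X-linked transcript Xist was present in these libraries too, at 420 CPM in young 1. Its range was 420 to 895 CPM in young, 293 to 429 in aged and 512 to 853 in NR-treated aged HSC. The origin of the Y-linked transcripts was not tested. Counts of mitosis genes without young 1 and young 5, and the named calls that were lost without them, are therefore given beside the results.

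Mki67 encodes Ki-67, the coat protein of mitotic chromosomes that serves as a proliferation marker. It was measured at 125, 116, 390, 229 and 179 CPM in young libraries 1 to 5, at 72.3, 51.9, 126, 193 and 93.0 CPM in aged libraries 1 to 5, and at 156, 67.4, 111, 83.6 and 140 CPM in NR-treated aged libraries 1 to 5. Young 3 stood highest and aged 2 lowest, and all 3 groups overlapped. The means were 208 ± 112 CPM in young, 107 ± 55.0 in aged and 112 ± 37.3 in NR-treated aged HSC (SD, n = 5). Top2a, the topoisomerase that disentangles sister chromatids, was at 313, 267, 486, 463 and 340 CPM in young, at 218, 201, 208, 327 and 256 CPM in aged and at 279, 103, 259, 201 and 298 CPM in NR-treated aged HSC. Only aged 4 reached into the young range among the aged libraries, and NR-treated aged 1 and 5 among the treated.

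Bub1, a kinase of the spindle checkpoint, was at 15.1, 12.9, 20.7, 14.9 and 10.5 CPM in young, at 7.51, 5.19, 6.85, 13.5 and 8.44 CPM in aged, and at 11.0, 4.47, 10.5, 6.94 and 14.7 CPM in NR-treated aged HSC. Again a single aged library, aged 4, lay within the young range. In aged 2 this gene rested on the smallest number of counts, 4, since that library was the shallowest.

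The cyclin B and Cdk1 genes were distributed differently. Ccnb1 was at 36.1, 44.6, 61.5, 30.8 and 29.9 CPM in young, at 34.5, 25.9, 48.9, 53.7 and 49.6 CPM in aged and at 48.6, 16.4, 34.2, 15.3 and 43.3 CPM in NR-treated aged HSC. The young and aged libraries were intermixed, and 2 treated libraries, 2 and 4, lay under all others. Cdk1, the kinase that cyclin B activates, was at 52.6, 49.4, 54.8, 34.1 and 46.1 CPM in young, at 35.4, 53.2, 41.7, 54.9 and 46.8 CPM in aged and at 56.5, 18.5, 45.9, 28.5 and 50.9 CPM in NR-treated aged HSC. Ccnb2, the second cyclin B, had means of 73.1 ± 18.8, 61.4 ± 14.8 and 53.8 ± 20.7 CPM in the same order of groups.

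Among the spindle kinases, Aurka, which acts at the spindle poles, had means of 17.1 ± 4.15 CPM in young, 12.9 ± 2.97 in aged and 11.1 ± 3.73 in NR-treated aged HSC. Aurkb, the kinase of the chromosomal passenger complex, had 31.4 ± 7.47, 25.3 ± 7.69 and 24.4 ± 11.0 CPM, and its partner Birc5 (survivin) had 91.6 ± 24.1, 89.1 ± 17.1 and 69.7 ± 32.4 CPM. Plk1, which acts from mitotic entry to cytokinesis, had 16.8 ± 5.01, 12.9 ± 4.30 and 13.2 ± 7.29 CPM. For each of these genes the range of every group overlapped that of both other groups.

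**Figure D1:**
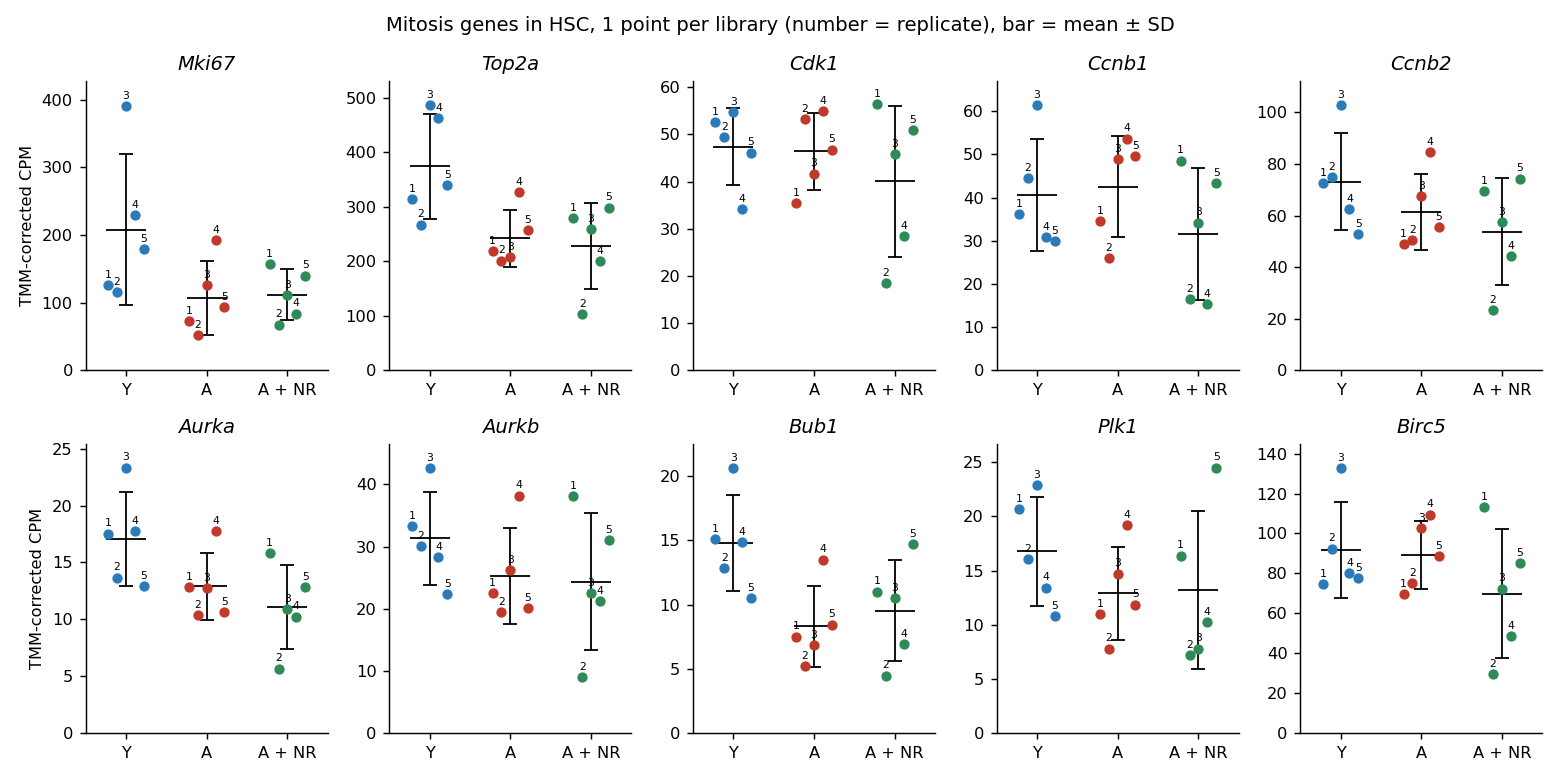
TMM-corrected CPM of the 10 mitosis genes, 1 panel per gene with a linear axis from 0. Points are libraries of young (Y), aged (A) and NR-treated aged (A + NR) HSC with their replicate number, and bars are the mean and SD of 5 libraries. Young 3 is the highest young library in 10 of 10 panels and aged 4 the highest aged library in 10 of 10, and all groups overlap.

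The first comparison asked how mitosis genes differ in HSC of aged and young mice. Mki67, Top2a and Bub1 had the largest differences, with log2 fold changes of -0.92 ± 0.33 (SE, adjusted p = 0.055), -0.62 ± 0.23 (adjusted p = 0.058) and -0.76 ± 0.29 (adjusted p = 0.070) by edgeR's quasi-likelihood test. None of the 3 passed the threshold of an adjusted p under 0.05. Ccnb1 (0.12 ± 0.28), Birc5 (-0.02 ± 0.25) and Cdk1 (-0.05 ± 0.23) had values near 0, and their 95% intervals ran from -0.47 to 0.71, from -0.55 to 0.50 and from -0.52 to 0.43. Thus 0 of 10 genes passed, while 19.3% of all genes did, and 0 of 10 had groups that did not overlap, against 12.4% of all genes. The median of the 10 genes was -0.28, with 9 of 10 below 0, beside a median of -0.03 over all genes.

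At an unadjusted p under 0.05 there were 3 of the 10 genes, beside 33.2% of all genes. The call of 0 was not the same in every test: the likelihood ratio test called Mki67 (adjusted p = 0.029) and Top2a (adjusted p = 0.041), DESeq2 called Top2a and Bub1, and limma-voom called Bub1. It also turned on single libraries, since 3 genes passed without aged 4, 2 without young 2, 2 without NR-treated aged 2 and 1 without young 1. With young 1 and young 5 both left out, Mki67 passed with a log2 fold change of -1.15 (adjusted p = 0.046). With young 3 and aged 2 left out, a choice made after the data were seen, Mki67 was at -0.43 (adjusted p = 0.33), Top2a at -0.46 and Bub1 at -0.56. The role of the granulocyte transcripts in young 3 was not tested.

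**Figure D2:**
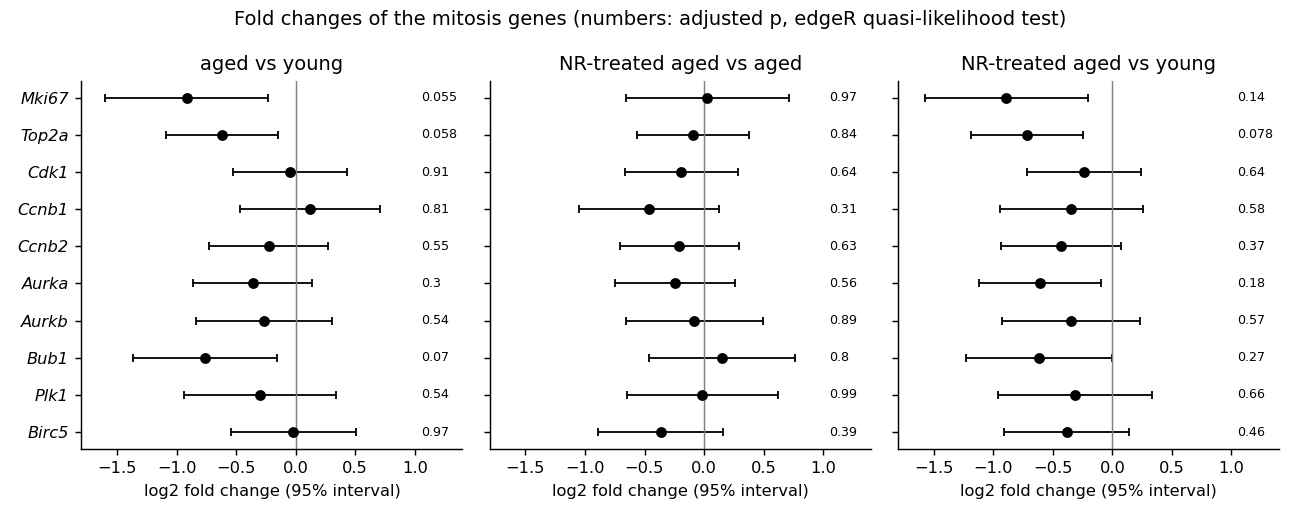
Log2 fold changes of the 10 mitosis genes in the 3 comparisons, with 95% intervals as horizontal bars and the adjusted p at the right of each panel (edgeR quasi-likelihood test, all 15 libraries). Mki67, Top2a and Bub1 lie left of 0 in both comparisons with young HSC, and every interval of the comparison of treated with untreated aged HSC includes 0.

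The second comparison asked whether NR changed these genes in aged HSC. The values of Mki67 (0.03 ± 0.33), Plk1 (-0.01 ± 0.31), Aurkb (-0.08 ± 0.28) and Top2a (-0.09 ± 0.23) were closest to 0. Ccnb1 had the largest log2 fold change, -0.47 ± 0.28 (adjusted p = 0.31), followed by Birc5 with -0.36 ± 0.25 (adjusted p = 0.39). With edgeR's quasi-likelihood test 0 of 10 genes passed, beside 8.07% of all genes, and 0 of 10 also had an unadjusted p under 0.05, beside 25.1%. The likelihood ratio test, DESeq2 and limma-voom called 0 as well, as did the fit without young 1 and young 5. No gene had separate groups, beside 8.60% of all genes. The median of the 10 was -0.14, and that of all genes 0.02. The intervals were wide: that of Mki67 ran from -0.66 to 0.71 and that of Ccnb1 from -1.05 to 0.12. Beside these values, the summed markers of mature blood cells had means of 7617 CPM in aged and 699 CPM in NR-treated aged HSC, and their part in the values was not tested.

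Against young HSC, NR-treated aged HSC had lower values for 10 of 10 genes, and the young libraries are those of the first comparison. Young 3 was the highest of all 15 libraries for 8 of the 10 genes. The genes also varied together from library to library, so their signs here and in the first comparison are not independent. The log2 fold change was -0.89 ± 0.33 for Mki67 (adjusted p = 0.14), -0.71 ± 0.23 for Top2a (adjusted p = 0.078), -0.62 ± 0.29 for Bub1 (adjusted p = 0.27) and -0.61 ± 0.25 for Aurka (adjusted p = 0.18). With the quasi-likelihood test 0 of 10 genes passed, beside 4.47% of all genes, and 4 had an unadjusted p under 0.05, beside 18.0%. The likelihood ratio test and DESeq2 each called Top2a (adjusted p = 0.042 and 0.026), limma-voom called 0, and Top2a also passed without young 2 (adjusted p = 0.042). Without young 1 and young 5 the count stayed at 0. The median of the 10 was -0.41, beside -0.00 over all genes, and 0 of 10 had groups that did not overlap, beside 4.74%.

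The mitosis genes varied together from library to library. Young 3 was the highest young library for 10 of 10 genes, aged 4 the highest aged library for 10 of 10, and NR-treated aged 2 the lowest treated library for 9 of 10. Their summed level was 761, 717, 1338, 974 and 782 CPM in young, 533, 501, 655, 911 and 641 CPM in aged, and 805, 284, 632, 469 and 775 CPM in NR-treated aged libraries 1 to 5. Across the 15 libraries, as deviations from the group means, the median Pearson correlation over 45 gene pairs was 0.80 (0.41 to 0.96) and the median Spearman correlation 0.77. Leaving out the 2 libraries farthest from the median, NR-treated aged 1 and 2, gave a median of 0.70. Leaving out the shallow aged 2 gave 0.80. The pairs share their libraries and depth, and the values are a description. The biological coefficient of variation of the 10 genes was 23.9% to 36.5%, beside a median of 21.9% over all genes.

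**Figure D3:**
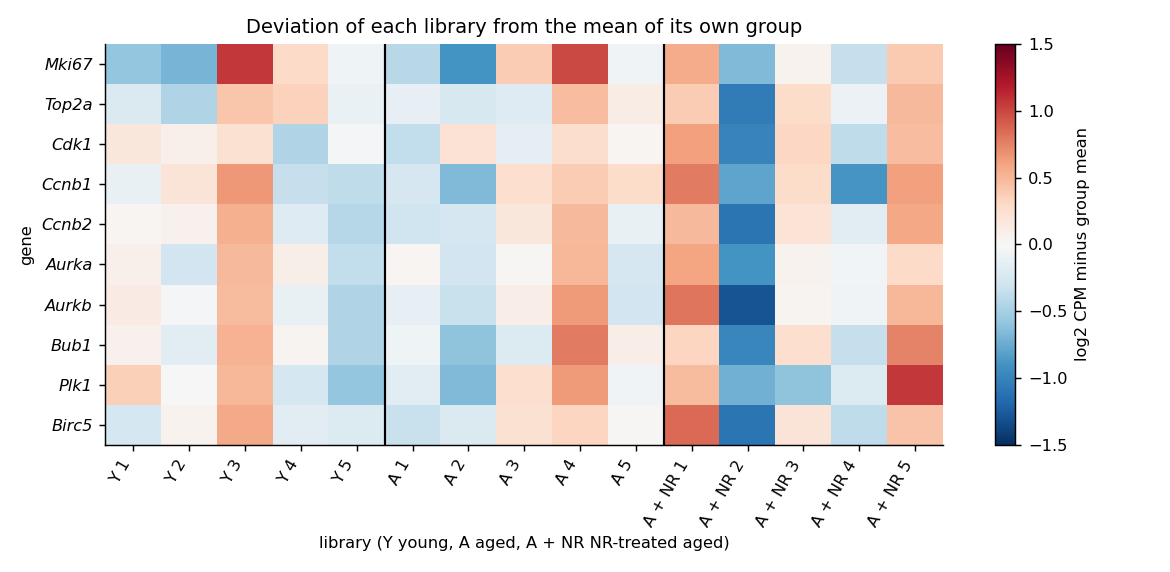
Log2 CPM of each mitosis gene (rows) in each library (columns) minus the mean of the library's own group. Young 3 and aged 4 are above their group mean and NR-treated aged 2 is below it in all 10 rows.

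Transcripts outside the 10 genes followed the same libraries. Among the 11340 other genes whose mean reached 5 CPM, those most like the mean of the 10 were the histone gene H2afx (Pearson 0.96 over 15 libraries) and the ribonucleotide reductase gene Rrm1 (0.96). They were followed by Spag5, Tpx2 and Hmmr, which encode spindle proteins (0.95, 0.95 and 0.94), and by Hmgb2, Cdca8, Pclaf, Sla and Esco2 (0.91 to 0.93). Cdca8 belongs to the chromosomal passenger complex with Aurkb and Birc5. By list, the median correlation was 0.70 for 92 further mitosis genes, 0.70 for 35 DNA replication genes, 0.31 for 35 markers of mature blood cells and -0.36 for 11 HSC markers, beside 0.07 over all genes.

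Since the genes varied together, their promoters were searched for 2 short motifs known from cell cycle genes. The cell cycle homology region (CHR, TTTGAA or TTCGAA) is bound by the DREAM and MuvB complexes, and the CCAAT box by NF-Y. In the 250 bases before the annotated start, on both strands, with RefSeq sequence of GRCm38.p6 matched for 9 of the 10 genes (all but Aurkb), a CHR was found in 4 (44.4%) and a CCAAT box in 8 (88.9%). Of all 32851 promoters in the table, 17.1% held a CHR and 33.8% a CCAAT box. The motifs do not share letters with each other. A match is a description and no site of binding. Only TTTGAA and TTCGAA were searched as a CHR, and other forms of it were not. A promoter said to have no CHR therefore had no match to these strings in the 250 bases, and may hold another form. The 4 promoters with a CHR are shown with that of Ccnb1, which held CCAAT boxes and no CHR, so that both patterns can be read. Capitals mark the motifs or their reverse complements. Each sequence is printed 5′ to 3′ on the strand of the gene and ends at the base before the RefSeq start. The GENCODE M21 spans of Cdk1 and Ccnb1 reach to 69352938 and 100786570, so their windows lie partly within these spans.
Mki67 (chr7:135716380-135716629, minus strand): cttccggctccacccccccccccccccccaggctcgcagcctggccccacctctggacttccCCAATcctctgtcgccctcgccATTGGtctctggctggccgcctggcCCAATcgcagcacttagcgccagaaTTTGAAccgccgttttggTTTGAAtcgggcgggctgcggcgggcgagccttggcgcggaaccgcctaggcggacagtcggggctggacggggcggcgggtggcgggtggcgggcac
Top2a (chr11:99024190-99024439, minus strand): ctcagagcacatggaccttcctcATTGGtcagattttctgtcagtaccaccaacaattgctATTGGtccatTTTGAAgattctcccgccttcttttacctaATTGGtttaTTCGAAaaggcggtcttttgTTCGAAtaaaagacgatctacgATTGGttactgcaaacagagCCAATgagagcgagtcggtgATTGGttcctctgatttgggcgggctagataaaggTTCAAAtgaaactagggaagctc
Cdk1 (chr10:69352913-69353162, minus strand): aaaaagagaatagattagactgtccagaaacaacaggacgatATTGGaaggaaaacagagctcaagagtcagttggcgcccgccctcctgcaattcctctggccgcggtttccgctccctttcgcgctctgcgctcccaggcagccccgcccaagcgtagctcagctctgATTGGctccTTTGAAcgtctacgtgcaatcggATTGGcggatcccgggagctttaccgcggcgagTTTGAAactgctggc
Ccnb2 (chr9:70421555-70421804, minus strand): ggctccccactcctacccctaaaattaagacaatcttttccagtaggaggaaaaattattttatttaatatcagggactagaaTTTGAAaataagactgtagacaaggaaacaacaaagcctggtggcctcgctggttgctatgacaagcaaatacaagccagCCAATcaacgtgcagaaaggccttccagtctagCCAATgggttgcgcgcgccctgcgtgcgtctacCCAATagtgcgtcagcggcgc
Ccnb1 (chr13:100786487-100786736, minus strand): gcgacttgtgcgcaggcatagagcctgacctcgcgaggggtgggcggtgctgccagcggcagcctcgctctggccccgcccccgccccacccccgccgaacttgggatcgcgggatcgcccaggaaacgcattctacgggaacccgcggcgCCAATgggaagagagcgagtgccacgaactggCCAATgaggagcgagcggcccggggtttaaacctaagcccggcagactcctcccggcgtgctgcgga

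In the Mki67 promoter the CHR matches began 116 and 98 bases before the start. Top2a had 4 CHR matches and 6 CCAAT boxes. Cdk1 held a CHR that began 15 bases and another that began 71 bases before its start, whereas that of Ccnb2 began 167 bases before. Bub1, Aurka and Plk1 had CCAAT boxes without a CHR, and Birc5 had neither. Of the genes with a CHR, Mki67 and Top2a had log2 fold changes of -0.92 and -0.62 between aged and young HSC, and Cdk1 and Ccnb2 of -0.05 and -0.23, and genes with and without a CHR were not compared by a test. Among 91 promoters of the other mitosis genes 36.3% held a CHR and 60.4% a CCAAT box.

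**Figure D4:**
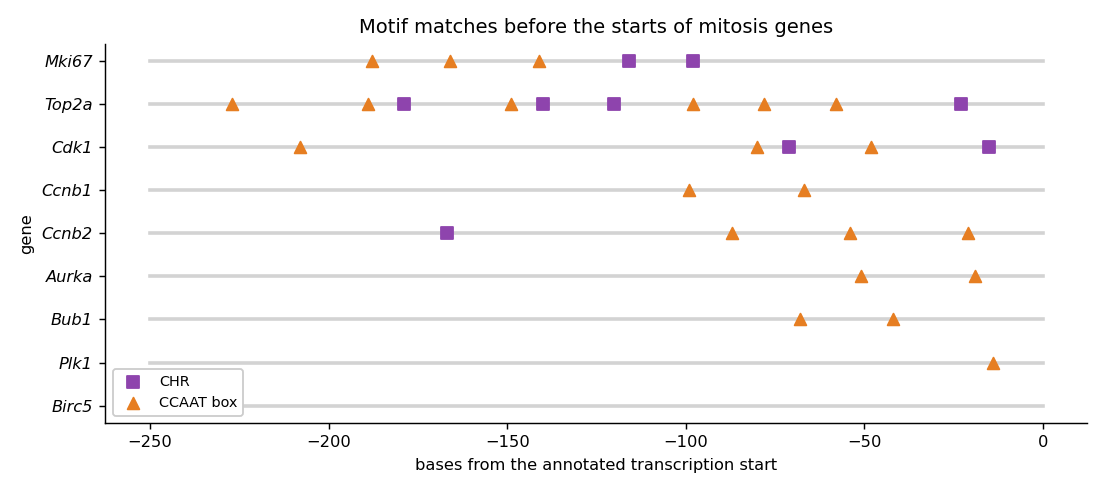
Positions of CHR (squares) and CCAAT box matches (triangles), by their first base, in the 250 bases before the annotated start of 9 mitosis genes. Mki67, Top2a, Cdk1 and Ccnb2 have both motifs, and Birc5 has neither.

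Beyond the 10 genes, 96 genes with roles in mitotic entry, chromosome condensation, the kinetochore, the spindle and mitotic exit were measured. Between aged and young HSC, 15 of 96 (15.6%) were lower and 1 higher, beside 9.63% of all genes lower and 9.68% higher, and the median log2 fold change was -0.36. Of these, 9 of the 27 spindle and cytokinesis genes were lower, among them Aspm, which focuses spindle poles (-1.30 ± 0.28, adjusted p = 0.0032), Spag5 (-1.11 ± 0.29, adjusted p = 0.011) and the kinesin Kif15 (-0.96 ± 0.29, adjusted p = 0.024). Lower too were the condensin subunits Ncapg (-0.91 ± 0.30, adjusted p = 0.038) and Ncapd2 (-0.88 ± 0.23, adjusted p = 0.011), the kinetochore gene Cenph (-0.46 ± 0.16, adjusted p = 0.044) and Anapc2, a subunit of the anaphase-promoting complex (-0.72 ± 0.12, adjusted p = 0.00052).

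Pttg1, which encodes securin, the inhibitor of separase, was the gene that rose, from 64.8 ± 12.3 CPM in young to 102 ± 15.2 CPM in aged HSC (0.65 ± 0.14, adjusted p = 0.0032). Of the genes named, Aspm, Spag5, Anapc2, Ncapd2 and Pttg1 kept their call in 15 of 15 fits that each left out 1 library, Kif15 in 13, Ncapg in 9 and Cenph in 7. The count of 16 genes was 10 without young 1 and young 5, where Kif15 (adjusted p = 0.064), Ncapg (0.097) and Cenph (0.24) no longer passed, and 6 without young 3 and aged 2. Leaving out a single library gave 6 without young 4, 7 without aged 3 or aged 5, 8 without young 3 and 9 without aged 1. None of the 14 mitotic entry genes passed, beside 19.3% of all genes. An unadjusted p under 0.05 was found for 3 of the 14, beside 33.2% of all genes.

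NR-treated and untreated aged HSC differed in 2 of these 96 genes (2.08%), 1 in each direction, beside 3.88% of all genes higher and 4.18% lower, and the list median was 0.01. Anapc2 rose from 24.9 ± 3.30 to 39.2 ± 3.13 CPM, with groups that did not overlap (0.62 ± 0.12, adjusted p = 0.0078). Pttg1 fell from 102 to 74.1 ± 9.48 CPM (-0.45 ± 0.14, adjusted p = 0.047). The call of Anapc2 held in 15 of 15 fits without 1 library and that of Pttg1 in 5 of 15, with adjusted p values of up to 0.15. In 12 other alternatives Anapc2 was called in 12 and Pttg1 in 4. The cytokinesis gene Ect2 was called by the likelihood ratio test, DESeq2 and limma-voom. Ncapd2 was called by DESeq2 and in the fit of the 2 groups alone. Without young 1 and young 5 a single gene passed, and Pttg1 had an adjusted p of 0.056.

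Compared with young HSC, NR-treated aged HSC had 4 genes lower (4.17%) and 0 higher, beside 1.91% of all genes lower and 2.56% higher. They were Ect2, an activator of RhoA in cytokinesis (-1.65 ± 0.34, adjusted p = 0.0056), Aspm (-1.13 ± 0.28, adjusted p = 0.022), the condensin gene Smc2 (-0.62 ± 0.17, adjusted p = 0.035) and Cenph (-0.57 ± 0.16, adjusted p = 0.041). In fits without 1 library Aspm kept its call in 11 of 15, Smc2 in 9 and Cenph in 7. Without young 1 and young 5 the count was 3, and Smc2 (adjusted p = 0.072) and Cenph (0.22) no longer passed. The count was 1 without young 3, young 4, NR-treated aged 2 or NR-treated aged 4, and 7 without young 2 or NR-treated aged 5.

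**Figure D5:**
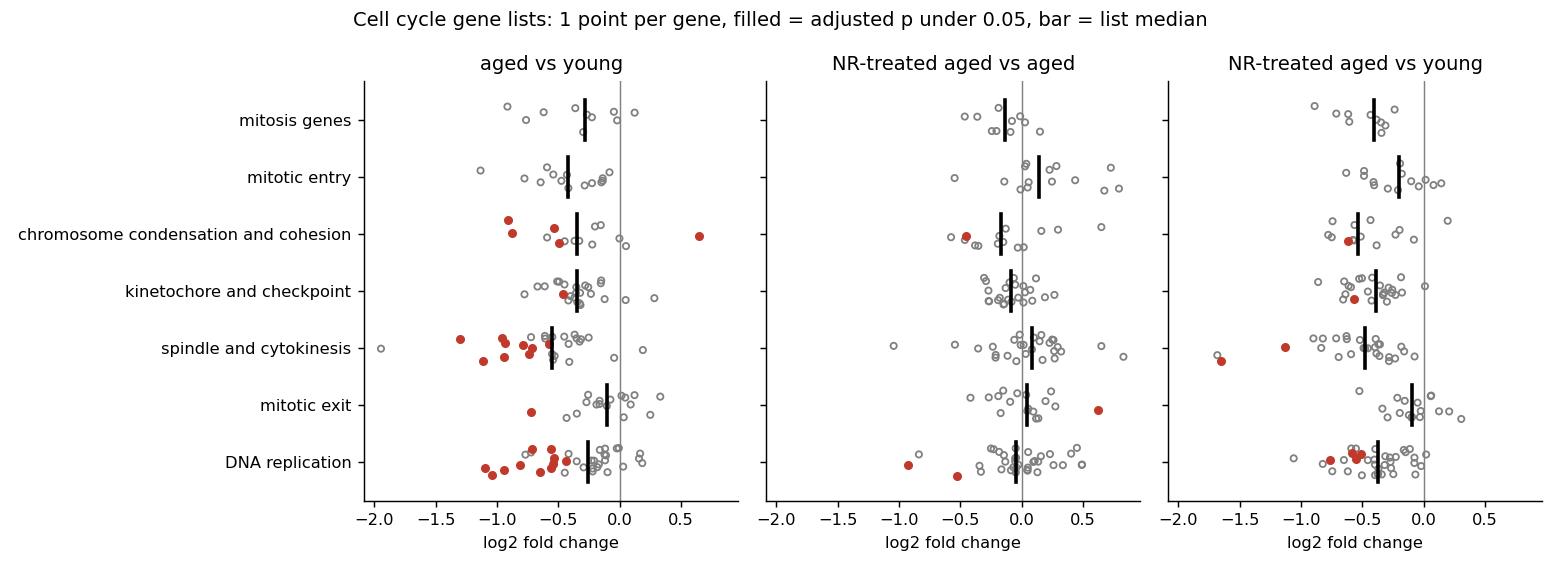
Log2 fold changes of the 10 mitosis genes, of 5 further mitosis lists and of DNA replication genes in the 3 comparisons. Each point is a gene, filled points passed an adjusted p under 0.05, and black bars are list medians, which for the 10 genes are -0.28, -0.14 and -0.41. Filled points are most numerous for spindle and replication genes between aged and young HSC.

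DNA replication genes, which act in S phase before mitosis, showed 11 of 36 genes lower and 0 higher between aged and young HSC (30.6% lower, beside 9.63% of all genes). E2f1, a transcription factor of S phase, fell by 1.10 on the log2 scale (adjusted p = 0.0044), the licensing factor Cdt1 by 1.04 (adjusted p = 0.0014) and the DNA polymerase subunit Pola1 by 0.94 (adjusted p = 0.00033). NR-treated aged HSC had 2 genes lower than aged HSC (5.56%, beside 4.18% of all genes), Rrm2 (-0.93 ± 0.28, adjusted p = 0.045) and Gmnn, an inhibitor of Cdt1 (-0.53 ± 0.15, adjusted p = 0.039), whose calls held in 6 and 8 of 15 fits without 1 library and were lost without young 1 and young 5 (adjusted p = 0.062 and 0.053). Against young HSC they had 4 genes lower (11.1%, beside 1.91% of all genes), among them Uhrf1 (-0.76 ± 0.14), Mcm3 (-0.59 ± 0.13) and Hells (-0.55 ± 0.15), of which Mcm3 kept its call in 14 and Hells in 8 of 15 such fits. Without young 1 and young 5, Mcm3 (adjusted p = 0.089) and Hells (0.18) no longer passed.

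Of 7 relatives of the 10 genes with roles outside mitosis, 1 was higher (14.3%) and 2 were lower (28.6%) in aged than in young HSC. The shares of all genes were 9.68% and 9.63%, and the median log2 fold change of the 7 relatives was -0.30. Plk2, a Polo-like kinase that is induced by stress, rose from 47.6 ± 12.4 CPM in young to 179 ± 58.3 CPM in aged HSC (1.93 ± 0.21, adjusted p = 2.65e-06), and was at 83.6 ± 19.7 CPM in NR-treated aged HSC, lower than in aged (-1.12 ± 0.20, adjusted p = 0.0047) and higher than in young HSC (0.81 ± 0.21, adjusted p = 0.027). The last of these calls held in 9 of 15 fits without 1 library and was lost without young 1 and young 5 (adjusted p = 0.13). Plk3, at a mean of 2.87 CPM over all libraries, and Plk4 were not called in any comparison by the quasi-likelihood test with TMM. Top2b, the relative of Top2a, fell by 0.59 on the log2 scale with age (adjusted p = 0.0022). Cdk2 fell by 0.69 (adjusted p = 0.022), called in 12 of 15 fits without 1 library but not without young 1 and young 5 (adjusted p = 0.12). Cdk4 (-0.04 ± 0.12) and Cdk6 (-0.30 ± 0.13) did not pass. With library totals in place of TMM, Plk4 and Cdk6 were called with age, and Cdk6 also with at least 10 counts in every library. Of these 7 relatives only Plk2 was called between treated and untreated aged HSC (14.3%, beside 8.07% of all genes), and Top2b too with library totals. Ccnb3 and Aurkc, also relatives, were not in the table.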

How the data were processed

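HSC of 5 young, 5 aged and 5 NR-treated aged mice were sequenced from 20000 to 25000 cells per mouse as 3′ biased libraries with a 10 bp UMI. The authors aligned reads to GRCm38 with STAR 2.4.2a, removed duplicated UMIs and counted exons of GENCODE M15. They deposited whole-number counts per gene without normalisation, after a filter on low genes. As described, at least 2 libraries had to exceed both 5 reads and 2 CPM. In the deposited counts, 16154 genes exceeded 2 CPM of the library total in at least 2 libraries, and 16122 exceeded 5 counts. The strand setting of the counting is not given in the sources used here. Exons of Top2a overlap Gm23451 on the same strand and those of Plk1 overlap Gm44985 on the opposite strand (GENCODE M21). How reads in such overlaps were counted is not given either, so these values may include reads of the other gene or lack reads of their own.

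Groups were taken from the labels. The whole table was fitted with edgeR 4.0.16 in R 4.3.3 (quasi-likelihood test, TMM, all 15 libraries, group as the only factor) with Benjamini-Hochberg adjustment over all genes. SEs are the log2 fold change divided by the square root of F. The study used the likelihood ratio test, an alternative here beside DESeq2 1.42.0, limma 3.58.1 (voom), other scalings and filters, a replicate block and leaving out libraries. Correlations use log2 CPM with a prior count of 2. Fits were tested on simulated data. No library was a copy of another of its group, since their counts gave a chi-square of 3.00 to 16.7 times its degrees of freedom. That the cells of each library came from an individual mouse is the study's description, which the chi-square cannot show. Given that description, p-values measure the spread between mice. Whether it holds for young 1 and young 5, the libraries with Y-linked transcripts, was not tested. The precision is set by 5 libraries per group and the counts behind each value.

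The genes, lists and alternatives were chosen with earlier results of these data known. Named are the 10 genes, all paralogues in the table, up to 3 called genes of each list with the largest change and at least 5 CPM, and the 10 genes most alike in their deviations. Positions come from GENCODE M21 and promoters from RefSeq (GRCm38.p6). Descriptions and plots were made in Python 3.11.15 with pandas 2.3.3, NumPy 2.4.6, SciPy 1.17.1 and matplotlib 3.10.9.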

Additional observations from a re-analysis of the deposited data

How the results depend on the processing

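The alternatives changed 1 choice at a time, except that DESeq2 brought its own size factors with its test. Of the 10 mitosis genes, 0 were called between aged and young HSC; the likelihood ratio test, DESeq2, both filters of 10 counts (in every library, which left 7 of the genes, or on average) and the replicate block each called 2, limma-voom, a fit of the 2 groups alone, DESeq2 size factors and leaving out young 1 and 5 each called 1, and library totals called 3. Leaving out single libraries gave 0 to 3. Between NR-treated and untreated aged HSC all alternatives gave 0. Between NR-treated aged and young HSC, the likelihood ratio test, DESeq2 and the replicate block gave 1, and leaving out single libraries 0 to 1. For the other mitosis genes the count with age (16) was 29 with library totals, 3 at an adjusted p under 0.01, 10 without young 1 and 5, 6 without young 3 and aged 2, and 6 to 22 without single libraries. That with NR (2) was 5 with DESeq2, 1 with DESeq2 size factors, a mean of at least 10 counts, an adjusted p under 0.01, without young 1 and 5 or without young 3 and aged 2, and 1 to 3 without single libraries. Against young HSC (4) it was 9 with DESeq2, 2 with the 2 groups alone, 1 at an adjusted p under 0.01 or without young 3 and aged 2, and 1 to 7 without single libraries. The causes were not tested.

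The replicate block did not rest on a pairing: deviations of same-numbered libraries correlated by 0.0021 on average (-0.27 to 0.13) and 1 of 15 pairs passed 0.1. Library totals in place of TMM moved the median of all genes to -0.16 with age and to 0.16 with NR, and the share of called genes that were higher from 50.1% to 29.1% and from 48.1% to 78.4%.

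Log2 fold changes near 0, none of them called, changed sign. Without single libraries the range was -0.15 to 0.040 for Cdk1, -0.11 to 0.15 for Birc5, -0.10 to 0.029 for Cdk4 and -0.21 to 0.13 for Plk3 with age. With NR it was -0.37 to 0.16 for Plk1, -0.21 to 0.093 for Top2a, -0.29 to 0.13 for Aurkb, -0.12 to 0.34 for Mki67, -0.071 to 0.39 for Bub1, -0.069 to 0.31 for Cdk2, -0.33 to 0.047 for Plk3 and -0.094 to 0.065 for Plk4. With age, Birc5 was at 0.023 with limma-voom and 0.19 without young 3 and aged 2, Ccnb1 at -0.020 with library totals and -0.052 without young 1 and 5, and Plk3 at 0.092 without young 1 and 5. With NR, library totals put Plk1 at 0.13, Plk4 at 0.14, Plk3 at 0.015, Cdk4 at 0.035, Top2a at 0.038 and Aurkb at 0.056. Plk1 was at 0.0052 with DESeq2 and 0.010 with a mean of at least 10 counts, Plk3 at 0.070 with limma-voom, and Mki67 at -0.12 without young 3 and aged 2. Plk4 was at 0.0082 with DESeq2, 0.0094 with DESeq2 size factors, 0.069 with at least 10 counts in every library, 0.020 with a mean of at least 10 counts and 0.0053 with the replicate block. Cdk6 in NR-treated aged against young HSC was at 0.0020 without young 1 and 5. Among the 10 mitosis genes, depth limits Bub1, Plk1 and Aurka most, whose counts in aged 2 were 4, 6 and 8. It limits the values of Plk3 too, which had means of 2.99 CPM in young, 3.03 in aged and 2.60 in NR-treated aged HSC.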

Other observations

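Among 12 genes of quiescence, the median log2 fold change was 0.02 with age and -0.19 with NR. The cyclin-dependent kinase inhibitor Cdkn1c (p57), which holds HSC in quiescence, rose from 68.5 ± 8.67 CPM in young to 125 ± 12.9 CPM in aged HSC (log2 fold change 0.87 ± 0.17, adjusted p = 0.002) and was at 74.2 ± 21.8 CPM in NR-treated aged HSC (-0.75 ± 0.17 against aged, adjusted p = 0.015, edgeR). Cdkn2c (p18) rose with age by 1.38 ± 0.21 (adjusted p = 0.00012) and stayed above young HSC under NR by 1.01 ± 0.21 (adjusted p = 0.0064), a call that was lost without young 1 and young 5 (0.86, adjusted p = 0.066). Rbl1 (p107), a pocket protein, fell by 0.84 with age (adjusted p = 0.002). The antiproliferative genes Btg2 and Btg1 fell by 1.42 and 0.59 in NR-treated against aged HSC (adjusted p = 0.0061 and 0.012). In total 2 of 12 were higher and 1 lower with age, beside 9.68% and 9.63% of all genes. With NR 3 of 12 were lower, beside 4.18%, and 1 of 12 was higher in NR-treated aged than in young HSC, beside 2.56%.

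The ratio of Mki67 to Ccnb1 CPM, looked at after both values had been seen, was 3.47, 2.59, 6.34, 7.42 and 5.96 in young, 2.09, 2.00, 2.56, 3.59 and 1.87 in aged, and 3.22, 4.11, 3.24, 5.45 and 3.23 in NR-treated aged libraries. The groups overlapped, with the aged library 4 alone reaching into the other ranges, and the ratio was not tested because it was chosen for this pattern.

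Multipotent progenitor markers (Cd48, Flt3 and Cd34) summed to 165 to 246 CPM in young, 85.6 to 119 CPM in aged and 76.0 to 98.4 CPM in NR-treated aged HSC. Cd34 carried most of the sum, with medians of 169, 74.0 and 78.4 CPM, whereas Cd48 had medians of 4.82 CPM in young, 27.3 CPM in aged and 3.89 CPM in NR-treated aged HSC. Their part in the levels of the mitosis genes was not tested.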
